A study of Arabidopsis thaliana with 20 samples.

Results

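The WRKY genes of Arabidopsis thaliana are described here in chromatin-bound RNA and in mRNA of seedlings mutant in the genes of 2 RNA-binding proteins, RZ-1B and RZ-1C. The members are 54 genes given by locus identifier, among 33602 genes in each chromatin-bound table and 33554 in the mRNA table, and all 54 are listed in each. RefSeq names all 54 as WRKY genes, and another 18 genes that it names WRKY were not analysed here. The rz-1b rz-1c double mutant was set against the wild type Col-0, both as whole seedlings of 10 days, raised on half-strength medium at 22 °C with 16 h of light and 8 h of dark. The labels name no alleles. Chromatin-bound RNA was sequenced from 4 libraries per genotype that carry 2 replicate numbers, and each table has 1 FPKM column (fragments per length and library total) per number, which makes n = 2. The mRNA came from 3 libraries of each genotype by the labels. The authors' deposited table reduces these to a single value per genotype, with a q value beside each pair. Whether replicates came from separate cultures is not stated, and each p-value therefore reflects the spread of these columns, which may be technical.

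WRKY proteins are plant transcription factors named after a run of amino acids in their DNA-binding domain, which folds around a zinc ion and binds a short promoter element, the W-box. Group I proteins carry a pair of such domains, group II proteins carry 1 and fall into subgroups IIa to IIe, and group III proteins carry 1 with another form of zinc finger. Many are switched on within minutes of pathogen recognition through MAP kinases, and many bind the promoters of other WRKY genes. Others act in leaf senescence, phosphate supply, abscisic acid responses, trichomes and pollen. Chromatin-bound RNA is what remains attached to washed chromatin, much of it nascent transcript, and in these libraries rRNA and leftover poly(A) RNA were removed, per the labels' protocols.

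The columns differed in ways that touch every value below. In the mutant columns 31.6% and 34.1% of all FPKM fell on rRNA genes, against 53.6% and 60.5% in the Col-0 columns. From the steps between low values, the mutant columns were 1.85 and 1.96 times as deep as Col-0 replicate 1, which was 1.51 times as deep as Col-0 replicate 2. The log2 change of FPKM + 1, mutant minus Col-0, had a median of 0.27 over all genes tested, and median-of-ratios rescaling brought this to 0.02. The targeted gene RZ-1C (AT5G04280) had 4.59 and 4.27 FPKM in the mutant columns, against 16.7 and 13.1 FPKM in Col-0, and 2.77 FPKM in mutant mRNA against 31.7 FPKM in Col-0 mRNA in the authors' deposited table. RZ-1B (AT1G60650) had 132 and 143 FPKM in the mutant columns, against 10.5 and 9.42 FPKM in Col-0, while its mRNA is at 2.299 FPKM in the mutant and 15.2 FPKM in Col-0 in the authors' deposited table. For RZ-1B the chromatin-bound value alone therefore runs against a loss of the transcript.

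Markers of seedling tissue were present in both genotypes. The 4 green-shoot markers summed to 1017 and 1015 FPKM in mutant chromatin-bound RNA, against 1115 and 892 FPKM in Col-0. Of these 4, LHCB2.1 and LHCB3 were called higher by limma and PSAD2 lower, so the sums hide opposite calls. After median-of-ratios rescaling only PSAD2 kept its call. The 4 root markers summed to 9.05 and 7.40 FPKM in the mutant, against 14.1 and 11.4 FPKM in Col-0. Among them only PRP3 was called lower by limma. LRX1 had both mutant columns below Col-0 and COBL9 had both above, each without a call, and EXPA7 overlapped. After the same rescaling PRP3 and LRX1 were called lower. In the authors' deposited table all 4 were lower in mutant mRNA, with a sum of 46.8 FPKM in the mutant and 123 FPKM in Col-0. The 5 seed-storage markers summed to 57.8 and 76.4 FPKM in the mutant, against 3.08 and 0.298 FPKM in Col-0. CRA1 alone had 44.8 and 58.4 FPKM in the mutant. CRA1, CRC and OLEO1 were called higher, and these 3 passed the filter of a mean of at least 1 FPKM through their mutant values alone. SESA1 and SESA4 were below the filter, and SESA1 overlapped between genotypes. Of the 4 flower and pollen markers, VGD1 and VGDH1 were listed at 0 in all chromatin-bound columns. In whole seedlings, fewer cells of a type and less RNA per cell cannot be told apart. The part of these markers in the WRKY results was not tested.

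The highest WRKY genes in chromatin-bound RNA were the same 3 in both genotypes, WRKY40, WRKY33 and WRKY18, ordered by FPKM. WRKY40 (AT1G80840), a pathogen-induced regulator of basal defence and of abscisic acid responses, had 205 and 299 FPKM in the mutant, against 164 and 141 FPKM in Col-0. WRKY33 (AT2G38470), which drives camalexin synthesis and resistance to necrotrophic fungi, had 177 and 304 FPKM in the mutant, against 130 and 161 FPKM in Col-0. WRKY18 (AT4G31800), the partner of WRKY40 in group IIa, had 237 and 135 FPKM in the mutant, against 106 and 87.2 FPKM in Col-0. In each genotype the columns of WRKY40 and WRKY33 interleaved, so their order is within the spread. In the mutant the columns of WRKY18 interleaved with those of both, so its place there is within the spread too. For all 3 genes both mutant columns lay above both Col-0 columns, as for 49.5% of all genes tested, and none passed the test (limma adjusted p = 0.0733 for WRKY40, 0.126 for WRKY33 and 0.0679 for WRKY18).

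The order by mRNA was different for these genes. In the authors' deposited table WRKY33 ranked 1, WRKY40 ranked 3 and WRKY18 ranked 20 of 54 in Col-0. In mutant mRNA of the same deposited table WRKY33 ranked 4, WRKY40 ranked 31 and WRKY18 ranked 3. WRKY11 and WRKY15, both of the calmodulin-binding group IId, ranked 1 and 2 in mutant mRNA, and 2 and 4 in Col-0 mRNA, in the authors' deposited table. Across the 54 genes Spearman's rho between the chromatin-bound and the mRNA level was 0.765 in the mutant and 0.759 in Col-0, as a description across genes, which share their libraries.

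The first comparison asked which WRKY genes differ between the mutant and Col-0 in chromatin-bound RNA. In the mutant 10 members fell and 6 rose, by limma on log2(FPKM + 1) with a Benjamini-Hochberg adjusted p under 0.05 over 19694 genes. The falls include the salicylic acid response genes WRKY70 and WRKY54 and the phosphate and senescence genes WRKY6, WRKY45 and WRKY75. The rises were WRKY22, WRKY44, WRKY46, WRKY48, WRKY53 and WRKY57, of which WRKY48 and WRKY57 were also called after rescaling. Of the 54 members 47 passed the filter of a mean of at least 1 FPKM. The 16 called compare with 17.4% of all genes tested, the 10 called lower compare with 4.24% of all genes tested called lower, and the 6 called higher with 13.2% called higher. The members called lower are 21.3% of the 47, above that background, and those called higher are 12.8%, close to it. After median-of-ratios rescaling 13 members were called, against 14.6% of all genes, of which 11 were lower, against 7.85%, and 2 higher, against 6.76%. Of the 10 falls, 3 passed the filter through their Col-0 values alone, namely WRKY41, WRKY51 and WRKY54, so that their difference is tied to the filter. The other 7 had a mean of at least 1 FPKM in each genotype.

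The calls rest on few columns. With either mutant replicate left out, 1 of the 16 calls was kept, the fall of WRKY70. Without Col-0 replicate 2, the shallowest column, 7 were kept, namely the rises of WRKY48 and WRKY57 and the falls of WRKY6, WRKY41, WRKY45, WRKY51 and WRKY70, and these 7 were also kept with no filter on low values.

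The largest fall was in group III. WRKY70 (AT3G56400), which stands between salicylic acid and jasmonate signalling, had 2.79 and 5.78 FPKM in the mutant, against 23.2 and 32.4 FPKM in Col-0. Its log2 change was -2.49 (SE 0.31, n = 2 per genotype, limma adjusted p = 0.00423). WRKY54 (AT2G40750), its close relative that acts with it in senescence, had 0.144 and 0.356 FPKM in the mutant, against 1.74 and 4.41 FPKM in Col-0 (log2 change -1.63, SE 0.38, limma adjusted p = 0.0312). Both are low in the mutant, and WRKY54 is near the floor of what these columns resolve. WRKY41 (AT4G11070), a gene tied to seed dormancy, had 0.883 and 0.692 FPKM in the mutant, against 3.08 and 3.33 FPKM in Col-0 (log2 change -1.24, SE 0.26, limma adjusted p = 0.0225). WRKY41 and WRKY54 passed the filter through their Col-0 values alone. The annotated span of WRKY41 overlaps that of a neighbouring gene.

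In group IIc, whose members carry a single domain and differ widely in role, 4 of the 9 tested members fell and 2 rose, beside 4.24% and 13.2% of all genes. WRKY45 (AT3G01970), an activator of the phosphate transporter gene PHT1;1, had 3.27 and 2.36 FPKM in the mutant, against 10.6 and 20.4 FPKM in Col-0 (log2 change -2.06, SE 0.32, limma adjusted p = 0.00794). WRKY75 (AT5G13080), which acts in phosphate starvation, root hairs and leaf senescence, had 3.26 and 4.83 FPKM in the mutant, against 9.31 and 21.5 FPKM in Col-0 (log2 change -1.61, SE 0.37, limma adjusted p = 0.0293). For both genes Col-0 replicate 2 stood well above Col-0 replicate 1, so the size of the fall is poorly fixed. WRKY51 (AT5G64810), which with WRKY50 represses jasmonate responses, had 1.16 and 0.560 FPKM in the mutant, against 4.45 and 6.43 FPKM in Col-0 (log2 change -1.79, SE 0.29, limma adjusted p = 0.0101). It passed the filter through its Col-0 values alone. WRKY28 (AT4G18170), an activator of the salicylic acid enzyme gene ICS1, had 4.90 and 5.09 FPKM in the mutant, against 8.84 and 8.92 FPKM in Col-0 (log2 change -0.72, SE 0.19, limma adjusted p = 0.0445). Its replicates were tight and its change was the smallest of the 10. WRKY8 (AT5G46350), a wound- and pathogen-induced relative of WRKY28, had 1.10 and 0.820 FPKM in the mutant, against 2.75 and 2.76 FPKM in Col-0. It missed the threshold narrowly (log2 change -0.94, SE 0.26, limma adjusted p = 0.0501) and was called lower in 5 of the alternatives, rescaling among them. WRKY8 also passed the filter through its Col-0 values alone, so its difference is tied to the filter.

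The remaining falls were 1 each in groups IIb, IIa and I. WRKY6 (AT1G62300), a senescence and defence regulator that represses PHO1, had 27.0 and 25.8 FPKM in the mutant, against 49.7 and 53.8 FPKM in Col-0 (log2 change -0.95, SE 0.16, limma adjusted p = 0.0117). WRKY6 was the fourth highest member in Col-0 chromatin-bound RNA and ranked 13 in the mutant. WRKY60 (AT2G25000), the third member of group IIa, had 5.03 and 6.72 FPKM in the mutant, against 10.6 and 16.6 FPKM in Col-0 (log2 change -1.07, SE 0.26, limma adjusted p = 0.0347). WRKY26 (AT5G07100), which acts in heat tolerance with WRKY25 and WRKY33, had 11.8 and 10.3 FPKM in the mutant, against 19.1 and 27.9 FPKM in Col-0 (log2 change -1.004, SE 0.22, limma adjusted p = 0.0263). Both mutant columns lay below both Col-0 columns for each of the 10, beside 15.7% of all genes tested.

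**Figure D1:**
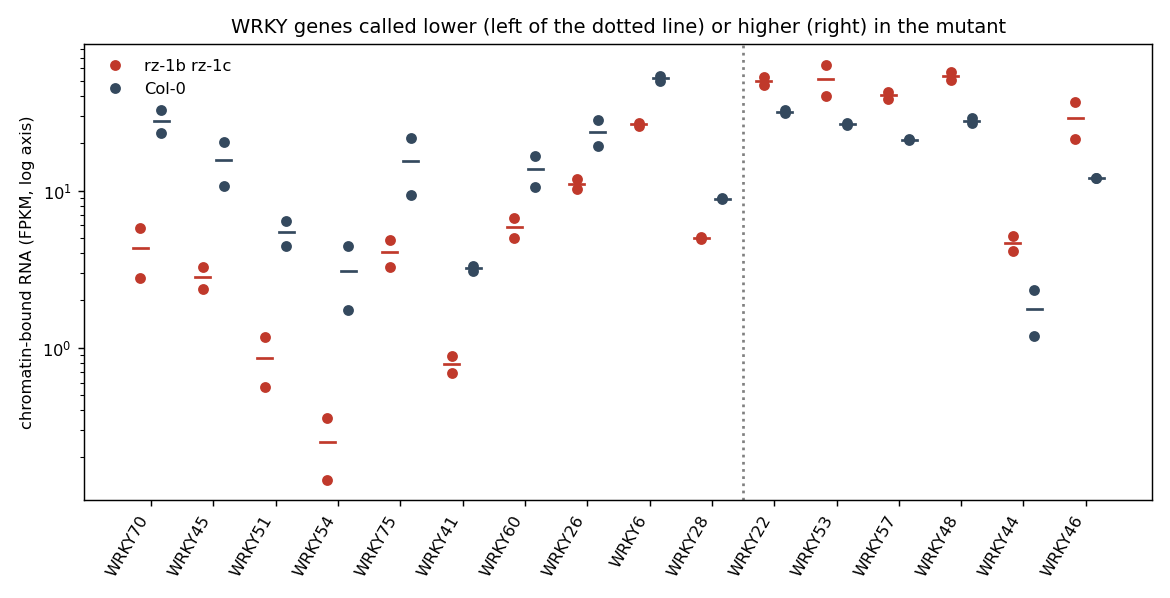
Chromatin-bound RNA of the 16 WRKY genes called between genotypes, in FPKM on a log axis, with 1 point per replicate column and a bar at the mean of each genotype (n = 2). The 10 genes left of the dotted line are lower in the mutant, from WRKY70 with the largest change to WRKY28 with the smallest, and the 6 on the right are higher.

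The 6 rises were all without overlap between genotypes, which a call nearly requires, and 49.5% of all genes had both mutant columns above. Of these 6 rises, 2 were also called after rescaling. WRKY48 (AT5G49520), a negative regulator of basal resistance to bacteria, had 56.7 and 50.2 FPKM in the mutant, against 27.0 and 28.8 FPKM in Col-0 (log2 change 0.91, SE 0.17, limma adjusted p = 0.0143). WRKY57 (AT1G69310), a drought-tolerance gene that also restrains jasmonate-induced senescence, had 42.7 and 38.5 FPKM in the mutant, against 21.2 and 20.9 FPKM in Col-0 (log2 change 0.91, SE 0.17, limma adjusted p = 0.0140). Both lay about 2-fold apart with little spread. WRKY48, but not WRKY57, lost its call when the rRNA genes were left out and the columns rescaled.

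The other 4 rises were not called after median-of-ratios rescaling. WRKY46 (AT2G46400), a group III gene of basal defence and drought responses, had 21.3 and 36.6 FPKM in the mutant, against 11.98 and 12.03 FPKM in Col-0 (log2 change 1.15, SE 0.26, limma adjusted p = 0.0274). WRKY53 (AT4G23810), an early activator of leaf senescence, had 40.0 and 63.2 FPKM in the mutant, against 26.7 and 26.0 FPKM in Col-0 (log2 change 0.91, SE 0.23, limma adjusted p = 0.0399). For both group III genes the mutant columns differed from each other more than the Col-0 columns did. WRKY22 (AT4G01250), which acts downstream of a MAP kinase cascade in flagellin signalling, had 47.1 and 52.5 FPKM in the mutant, against 32.5 and 31.3 FPKM in Col-0 (log2 change 0.63, SE 0.16, limma adjusted p = 0.0414). WRKY44 (AT2G37260), known as TTG2 for its role in trichomes and the seed coat, had 5.17 and 4.10 FPKM in the mutant, against 2.33 and 1.19 FPKM in Col-0 (log2 change 1.05, SE 0.29, limma adjusted p = 0.0475).

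The other 31 tested members did not pass, and most of group I, IId and IIe is among them. In group IId, none of the 6 was called by limma, beside 17.4% of all genes tested, and 6 genes are too few to set the group apart from that share. Log2 changes in the group ran from -0.06 for WRKY39 and WRKY17 to 0.62 for WRKY15. WRKY11 (AT4G31550), which with WRKY17 limits basal resistance, had 64.9 and 70.8 FPKM in the mutant, against 42.8 and 49.2 FPKM in Col-0 (log2 change 0.55, SE 0.17, limma adjusted p = 0.0629). In group I, the widely expressed genes WRKY1, WRKY2, WRKY3, WRKY4 and WRKY20 had log2 changes between 0.20 and 0.34, near the 0.27 of all genes. WRKY3 and WRKY4 are paralogs needed against necrotrophic fungi, and WRKY3 had 10.4 and 8.27 FPKM in the mutant, against 8.81 and 7.16 FPKM in Col-0. WRKY30 (AT5G24110), a group III gene induced by oxidative stress, had 5.95 and 5.47 FPKM in the mutant, against 4.13 and 1.17 FPKM in Col-0 (limma adjusted p = 0.118). Over all 47 tested members, 20 had both mutant columns above both Col-0 columns and 13 had both below, beside 49.5% and 15.7% of all genes tested. The median log2 change of the 47 was 0.06, beside 0.27 over all genes tested.

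Of the tested members, 16 passed in neither kind of RNA, and they show how far levels scatter without a call. WRKY25 (AT2G30250), a group I gene of heat and salt tolerance, had 30.6 and 27.0 FPKM in mutant chromatin-bound RNA, against 35.5 and 35.0 FPKM in Col-0. Both mutant columns lay below both Col-0 columns, with limma adjusted p = 0.258. WRKY23 (AT2G47260), an auxin-induced gene of root patterning, had 4.88 and 4.90 FPKM in the mutant, against 3.19 and 1.77 FPKM in Col-0 (limma adjusted p = 0.0851), with no overlap. WRKY27 (AT5G52830), which affects symptoms caused by the wilt bacterium Ralstonia, had 1.95 and 1.35 FPKM in the mutant, against 2.36 and 3.45 FPKM in Col-0 (limma adjusted p = 0.201). In group IIb, WRKY72 (AT5G15130), a gene of basal immunity, had 3.36 and 7.81 FPKM in the mutant, against 5.78 and 6.44 FPKM in Col-0, so that the mutant columns enclosed those of Col-0. WRKY36 (AT1G69810), a repressor in photomorphogenesis, had 10.7 and 5.26 FPKM in the mutant, against 6.69 and 7.76 FPKM in Col-0, with the same overlap. WRKY31 and WRKY32 also overlapped between genotypes.

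The 7 members below the filter were WRKY9, WRKY12, WRKY13, WRKY34, WRKY42, WRKY43 and WRKY55. WRKY12, a regulator of stem pith and flowering, was listed at 0 in all 4 chromatin-bound columns. WRKY34 (AT4G26440), known from pollen, had 1.19 and 1.70 FPKM in the mutant, against 0.209 and 0.0938 FPKM in Col-0. It was called higher with no filter on low values, and the authors' deposited table lists its mRNA at 0.254 FPKM in the mutant and at 0 in Col-0 (q = 1). WRKY43 was listed at 0 in both mutant columns, against 0.337 and 0.884 FPKM in Col-0. WRKY13, which acts opposite to WRKY12 in flowering time, had 0.738 and 0.285 FPKM in the mutant, against 1.84 FPKM and a listed 0 in Col-0.

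**Figure D2:**
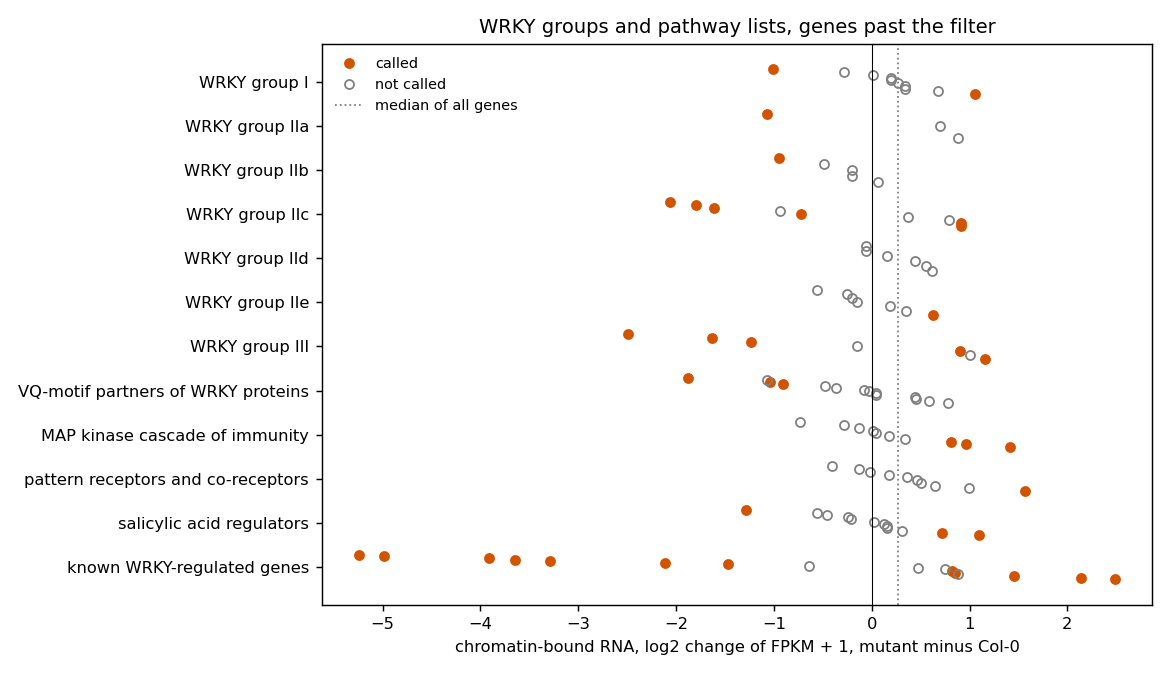
Log2 change of chromatin-bound FPKM + 1, mutant minus Col-0, for each gene past the filter, by WRKY group and by pathway list. Filled points are called by limma, open points are not, and the dotted line is the median of all genes (0.27). Groups I, IIc and III have calls on both sides. Group IId, with 6 genes, has none, beside 17.4% of all genes tested.

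The second comparison took the same genotypes in mRNA, where WRKY40 and WRKY33, abundant defence regulators, were much lower in the mutant. At q under 0.05 the authors' deposited table called 26 members, against 21.5% of all genes listed. They were 13 members higher in the mutant, against 10.5%, and 13 lower, against 11%. Among genes of at least 1 FPKM in the higher genotype, 13 of 48 members were higher and 12 lower, against 17.1% and 17.9% of such genes. The members called are 52.1% of these 48, beside 35.0% of all such genes. The deposited table has no replicate values, so no error can be given. The median log2 ratio of the 48 members was -0.08, beside -0.01 over all such genes.

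Among the falls, the authors' deposited table has WRKY40 at 6.59 FPKM in the mutant and 80.4 FPKM in Col-0, 12.2-fold lower (q = 0.000329). WRKY33 in the authors' deposited table is at 41.4 FPKM in the mutant and 168 FPKM in Col-0, 4.06-fold lower (q = 0.000329). By Col-0 level WRKY33 was the highest of all members and WRKY40 came after WRKY11. The authors' deposited table has WRKY11 at 59.95 FPKM in the mutant and 91.4 FPKM in Col-0 (q = 0.000329), and WRKY15, which acts in salt and oxidative stress, at 57.2 FPKM in the mutant and 75.3 FPKM in Col-0 (q = 0.0257). WRKY70 in the authors' deposited table is at 6.76 FPKM in the mutant and 16.2 FPKM in Col-0 (q = 0.000329), and WRKY26 is at 5.13 FPKM in the mutant and 7.63 FPKM in Col-0 (q = 0.0355).

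Group IIe held 5 of the 13 falls among its 7 members. All 7 had a value of 1 FPKM or more in either genotype, and 17.9% of all genes reaching that level were called lower. In the authors' deposited table WRKY22 is at 8.32 FPKM in the mutant and 26.0 FPKM in Col-0, and WRKY35 is at 1.54 FPKM in the mutant and 5.03 FPKM in Col-0 (q = 0.000329 for each). WRKY69 in the authors' deposited table is at 8.30 FPKM in the mutant and 16.8 FPKM in Col-0 (q = 0.00115), WRKY65 is at 33.7 FPKM in the mutant and 48.5 FPKM in Col-0 (q = 0.00405), and WRKY14 is at 7.89 FPKM in the mutant and 10.7 FPKM in Col-0 (q = 0.0498). The exception that rose was WRKY29, induced by flagellin together with WRKY22. The authors' deposited table has WRKY29 at 20.2 FPKM in the mutant and 10.0 FPKM in Col-0 (q = 0.000329). WRKY22 and WRKY29, often named together as markers of flagellin signalling, thus moved in opposite directions in mRNA. The 2 falls not yet named, WRKY9 and WRKY42, were at 2.50 and 0.330 FPKM in mutant mRNA, against 4.20 and 0.829 FPKM in Col-0, in the authors' deposited table (q = 0.0325 and 0.0394).

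Group IIc held 5 of the 13 rises and no fall among its 12 members, of which 10 had at least 1 FPKM in the higher genotype. Of all such genes 17.1% were higher and 17.9% lower. WRKY48 in the authors' deposited table is at 10.1 FPKM in the mutant and 2.39 FPKM in Col-0, and WRKY45 is at 19.3 FPKM in the mutant and 7.47 FPKM in Col-0 (q = 0.000329 for each). WRKY75 in the authors' deposited table is at 14.9 FPKM in the mutant and 7.99 FPKM in Col-0 (q = 0.000329), and WRKY8 is at 1.85 FPKM in the mutant and 0.554 FPKM in Col-0 (q = 0.00425). The fifth, WRKY50, is at 3.55 FPKM in the mutant and 1.14 FPKM in Col-0 in the authors' deposited table (q = 0.0257).

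All 3 members of group IIa were called in mRNA, 2 of them higher. Each had at least 1 FPKM in the higher genotype, where 35.0% of all genes were called, 17.1% higher and 17.9% lower. These 3 proteins form mixed complexes with each other and overlap in function. The authors' deposited table has WRKY18 at 50.5 FPKM in the mutant and 11.96 FPKM in Col-0, 4.22-fold higher, and WRKY60 at 7.44 FPKM in the mutant and 3.26 FPKM in Col-0 (q = 0.000329 for each), where WRKY40 fell. The group III rises in the authors' deposited table were WRKY30, at 7.14 FPKM in the mutant and 1.76 FPKM in Col-0 (q = 0.000329), and WRKY38, a negative regulator of basal defence, at 1.17 FPKM in the mutant and 0.274 FPKM in Col-0 (q = 0.0217). The last 3 rises were in groups I and IIb. In the authors' deposited table WRKY44 is at 5.79 FPKM in the mutant and 3.06 FPKM in Col-0 (q = 0.00115), WRKY6 is at 21.0 FPKM in the mutant and 15.7 FPKM in Col-0 (q = 0.0290), and WRKY47 is at 11.3 FPKM in the mutant and 7.94 FPKM in Col-0 (q = 0.0194).

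**Figure D3:**
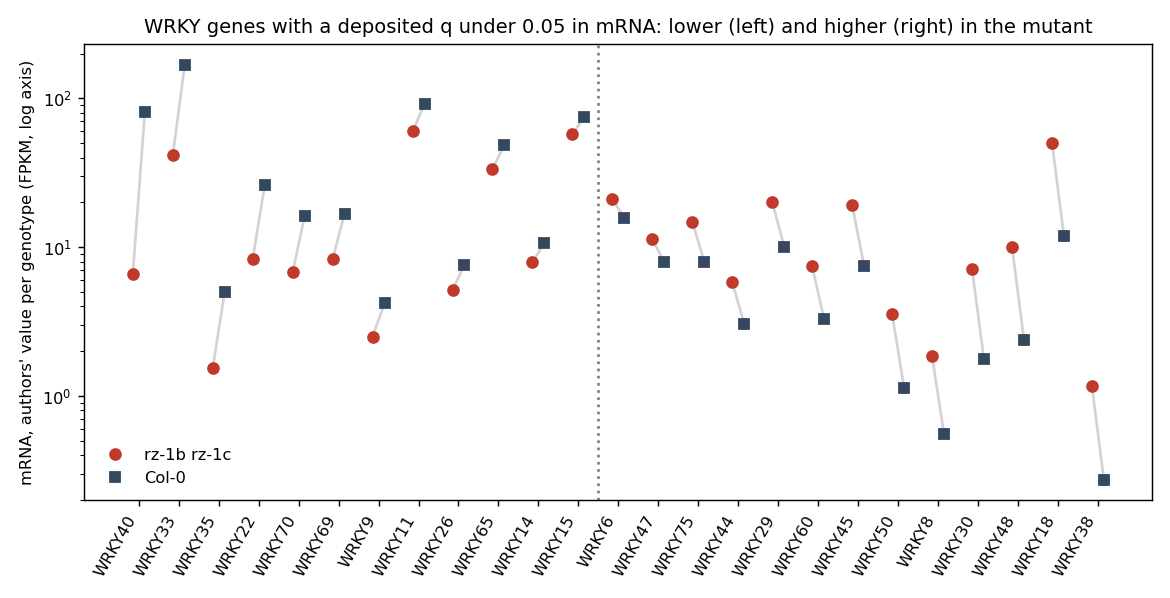
The authors' deposited mRNA values of the 25 WRKY genes with a q under 0.05 and a value of 1 FPKM or more in either genotype, in FPKM on a log axis, with 1 value per genotype joined by a line and no error available. The 12 genes left of the dotted line are lower in the mutant, WRKY40 with the largest ratio, and the 13 on the right are higher.

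The chromatin-bound and mRNA calls of the WRKY genes were then set side by side. Of the 9 members called in both kinds of RNA, 5 were called in opposite directions, where 24.5% of all 1560 genes called in both were. That share depends on direction. Over all genes, 226 chromatin-bound falls were called higher in mRNA and 242 lower, while 936 rises were called higher and 156 lower. Most of the 9 members are falls and most of the 1560 genes are rises, so 24.5% is not a like background. WRKY6, WRKY45, WRKY60 and WRKY75 were lower in the mutant's chromatin-bound RNA and higher in its mRNA in the authors' deposited table, and WRKY22 was higher in chromatin-bound RNA and lower in mRNA. WRKY44 and WRKY48 were higher in both, and WRKY26 and WRKY70 were lower in both. The 4 that were lower on chromatin and higher in mRNA are 4 of the 10 chromatin-bound falls, beside 27.1% of all such falls. WRKY22 is 1 of the 6 chromatin-bound rises, beside 6.03% of all such rises, and its rise was not called after median-of-ratios rescaling. These counts are small, and the difference between the kinds of RNA could not be tested because the mRNA table has no replicate values.

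The most abundant defence members, WRKY40 and WRKY33, had no call in chromatin-bound RNA and a fall in mRNA. WRKY40 had a chromatin-bound log2 change of 0.70 (SE 0.23) and a log2 ratio of -3.61 in mRNA from the authors' deposited table. WRKY33 had a chromatin-bound log2 change of 0.68 (SE 0.27) and a log2 ratio of -2.02 in mRNA from the authors' deposited table. Both chromatin-bound values lie above the 0.27 of all genes. The annotated spans of both genes overlap those of neighbours, as do 11 of the 54 in all, WRKY53 among them, and whether counting used strand is not given in these sources. Across the 47 members with both values, Pearson's r between the changes was -0.12, beside 0.27 across 18512 genes of at least 1 FPKM in mRNA, as a description across genes. The members were not filtered by mRNA level, and WRKY51 and WRKY54 were under 1 FPKM in mRNA of both genotypes, so the sets are not matched.

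The other members called in mRNA alone spread widely in chromatin-bound RNA, where none passed the test. Among those lower in mRNA, WRKY15 (AT2G23320) had 58.1 and 90.0 FPKM in mutant chromatin-bound RNA, against 53.2 and 41.0 FPKM in Col-0 (limma adjusted p = 0.121), with the mutant columns above. WRKY35 had 3.17 and 1.39 FPKM in the mutant, against 2.38 and 2.87 FPKM in Col-0, and WRKY69 had 12.7 and 8.29 FPKM in the mutant, against 10.3 and 5.91 FPKM in Col-0. WRKY65 had 7.83 and 4.53 FPKM in the mutant, against 7.39 and 7.30 FPKM in Col-0, and WRKY14 had 4.79 and 4.40 FPKM in the mutant, against 3.15 and 4.84 FPKM in Col-0. These 4 genes of group IIe overlapped between genotypes. Below the filter, WRKY9 had 1.16 and 0.632 FPKM in the mutant, against 1.26 and 0.539 FPKM in Col-0.

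Among those higher in mRNA, WRKY50, the relative of WRKY51, had 5.92 and 5.28 FPKM in mutant chromatin-bound RNA, against 4.33 and 3.88 FPKM in Col-0 (limma adjusted p = 0.250). WRKY50 had its mutant columns above those of Col-0, where WRKY51 fell. WRKY29 had 8.71 and 4.98 FPKM in the mutant, against 5.45 and 9.999 FPKM in Col-0, and WRKY38 had 5.99 and 2.84 FPKM in the mutant, against 2.84 and 7.56 FPKM in Col-0. Both genes varied more between replicates than between genotypes. WRKY47 had 17.1 and 14.6 FPKM in the mutant, against 16.9 and 19.9 FPKM in Col-0, with overlap.

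**Figure D4:**
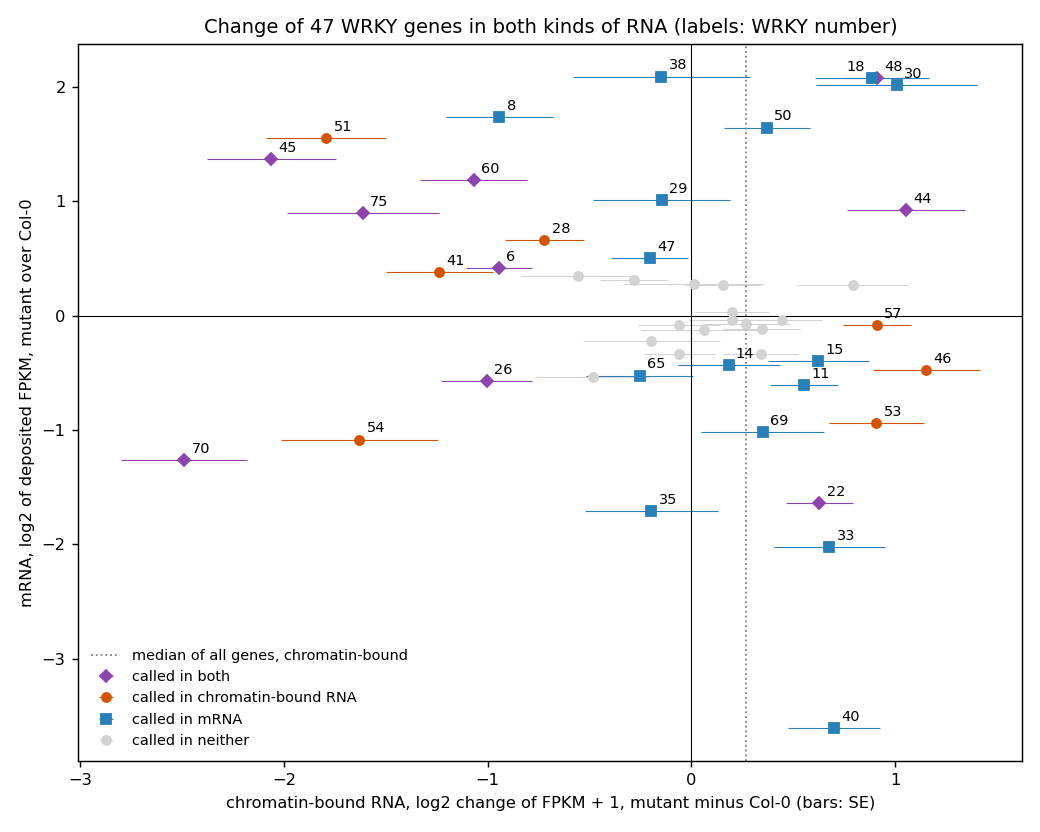
Change of 47 WRKY genes in chromatin-bound RNA (x axis, log2 of FPKM + 1, mutant minus Col-0, with SE bars, n = 2 per genotype) and in mRNA (y axis, log2 of the deposited values, mutant over Col-0). WRKY6, WRKY45, WRKY60 and WRKY75 lie at the upper left, WRKY22, WRKY33 and WRKY40 at the lower right, and WRKY70 at the lower left.

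Genes that work with WRKY proteins were read from lists of partners, kinases, receptors, regulators and targets. Their chromatin-bound medians stand beside the 0.27 of all genes. The lists were chosen with earlier results of these data known, so their counts describe the listed genes and are no test of a list. VQ proteins bind WRKY domains through a short motif, and of 18 such genes 14 were tested, of which 3 fell in chromatin-bound RNA and none rose, beside 4.24% and 13.2% of all genes (median log2 change -0.05). SIB1 (AT3G56710), a partner of WRKY33 that passed the filter through its Col-0 values alone, had 0.886 and 0.720 FPKM in the mutant, against 6.999 and 4.47 FPKM in Col-0 (log2 change -1.88, SE 0.28, limma adjusted p = 0.00738). JAV1 (AT3G22160), a jasmonate-controlled repressor of defence, had 7.07 and 6.33 FPKM in the mutant, against 13.98 and 15.8 FPKM in Col-0 (limma adjusted p = 0.0140). The third was VQ10 (AT1G78410), with 2.69 and 2.79 FPKM in the mutant, against 6.029 and 6.031 FPKM in Col-0 (log2 change -0.91, SE 0.21, limma adjusted p = 0.0306). In mRNA 15 of the 18 had at least 1 FPKM in the higher genotype. Of these, 2 were higher and 1 lower in the authors' deposited table, beside 17.1% and 17.9% of all such genes.

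Kinases of the immune MAP kinase cascade phosphorylate WRKY33 and act upstream of WRKY22 and WRKY29. Of 11 genes of this cascade 10 were tested, and 3 rose in chromatin-bound RNA, beside 13.2% of all genes (median log2 change 0.11). MKK4 (AT1G51660) had 58.3 and 72.9 FPKM in the mutant, against 25.3 and 22.5 FPKM in Col-0 (log2 change 1.41, SE 0.18, limma adjusted p = 0.00486). MKK5 and MEKK1 had log2 changes of 0.96 and 0.82 (limma adjusted p = 0.0282 and 0.0331), and neither was called after rescaling, where MPK11, another kinase of the list, was called lower. In mRNA 10 of the 11 had at least 1 FPKM in the higher genotype. Of these, 2 were higher and 2 lower in the authors' deposited table, beside 17.1% and 17.9% of all such genes. Among 10 pattern receptor and co-receptor genes, with a median log2 change of 0.41, 1 was called higher, beside 13.2% of all genes. PEPR1 (AT1G73080), a receptor of plant elicitor peptides, had 149 and 130.5 FPKM in the mutant, against 54.1 and 39.6 FPKM in Col-0 (limma adjusted p = 0.00472). In mRNA all 10 had at least 1 FPKM in the higher genotype. Of these, 1 was higher and 1 lower in the authors' deposited table, beside 17.1% and 17.9% of all such genes.

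Among 13 regulators of salicylic acid signalling, 12 were tested, and 2 rose and 1 fell in chromatin-bound RNA, beside 13.2% and 4.24% of all genes (median log2 change 0.07). After rescaling 1 was called higher, SAG101, and 2 lower, SARD1 and NPR4. SARD1 (AT1G73805), a transcription factor of salicylic acid synthesis, had 11.1 and 11.9 FPKM in the mutant, against 27.2 and 32.0 FPKM in Col-0 (log2 change -1.28, SE 0.18, limma adjusted p = 0.00588). SAG101 (AT5G14930), a partner of EDS1, had 40.9 and 49.8 FPKM in the mutant, against 24.2 and 17.4 FPKM in Col-0 (limma adjusted p = 0.0174). NPR3 (AT5G45110), a salicylic acid receptor, differed by 0.72 on the log2 scale (SE 0.17, limma adjusted p = 0.0331), with no call after rescaling. In mRNA 12 of the 13 had at least 1 FPKM in the higher genotype. Of these, none was higher and 2 were lower in the authors' deposited table, beside 17.1% and 17.9% of all such genes.

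Of 16 genes known as WRKY-regulated, 7 fell and 5 rose in chromatin-bound RNA, beside 4.24% and 13.2% of all genes (median log2 change -0.09). Since this list too was chosen with earlier results of these data known, its counts do not show that WRKY-regulated genes differ from other genes. Of these falls, 5 passed the filter through their Col-0 values alone. In mRNA 15 of the 16 had at least 1 FPKM in the higher genotype. Of these 15, 7 were higher and 4 lower in the authors' deposited table, beside 17.1% and 17.9% of all such genes. Of the 7 that fell, 5 were higher in mRNA in that deposited table, namely PAD3, CYP71A12, CYP71A13, ACS2 and FRK1, beside 27.1% of all chromatin-bound falls. The camalexin gene CYP71A12 (AT2G30750), a close copy of CYP71A13 with which reads may be shared, was listed at 0 and 0.322 FPKM in the mutant, against 31.0 and 57.7 FPKM in Col-0 (limma adjusted p = 0.000614). In the authors' deposited table CYP71A12 is at 116 FPKM in mutant mRNA and 0.870 FPKM in Col-0 (q = 0.000329). CYP82C2 (AT4G31970), which acts in the branch to cyanogenic indoles, and FRK1 (AT2G19190), a flagellin-induced kinase gene, had log2 changes of -4.98 and -3.64 (limma adjusted p = 0.000569 and 0.00176). PR1 (AT2G14610), the marker of salicylic acid signalling, was listed at 0 in both mutant columns, against 7.63 and 25.2 FPKM in Col-0 (limma adjusted p = 0.00415). The mRNA values of PR1 and CYP82C2 were also higher in the mutant, but neither passed. In the authors' deposited table PR1 is at 4.11 FPKM in the mutant and 0.139 FPKM in Col-0 (q = 0.0771). CYP82C2 is at 6.98 FPKM in the mutant and 0.0112 FPKM in Col-0 in that deposited table (q = 0.229).

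The 5 rises of that list were PHO1, ABI4, ABI5, NCED3 and GL2, named after their values were seen. ABI5 (AT2G36270), an abscisic acid response factor of seeds, had 12.3 and 13.8 FPKM in mutant chromatin-bound RNA, against 1.31 and 1.72 FPKM in Col-0 (log2 change 2.48, SE 0.22, limma adjusted p = 0.00137). ABI4 (AT2G40220), another such factor, which passed the filter through its mutant values alone, had 2.88 and 4.04 FPKM in the mutant and was listed at 0 in both Col-0 columns (limma adjusted p = 0.00585). NCED3, an enzyme gene of abscisic acid synthesis, and GL2, a trichome and root hair regulator, had log2 changes of 1.45 and 0.86 (limma adjusted p = 0.0201 and 0.0325), and GL2 was not called after rescaling. The 3 tested seed-storage markers were higher in the same columns, each past the filter through its mutant values alone. The part of these markers in the values of this list was not tested. In mRNA NCED3 went the other way, at 2.82 FPKM in the mutant and 8.73 FPKM in Col-0 in the authors' deposited table (q = 0.000329). ABI5 was higher in mRNA too, at 18.1 FPKM in the mutant and 2.16 FPKM in Col-0 in that deposited table (q = 0.000329). ABI4 and GL2 did not pass in mRNA.

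The phosphate genes of that list were named after their values were seen, since they are targets of called WRKY genes. PHO1 (AT3G23430), a phosphate exporter gene repressed by WRKY6, had 10.1 and 13.3 FPKM in mutant chromatin-bound RNA, against 6.49 and 5.81 FPKM in Col-0 (log2 change 0.82, limma adjusted p = 0.0402), with no call after rescaling. In the authors' deposited table PHO1 is at 30.9 FPKM in mutant mRNA and 51.4 FPKM in Col-0 (q = 0.000329). PHT1;1 (AT5G43350), activated by WRKY45, had 6.74 and 6.29 FPKM in mutant chromatin-bound RNA, against 10.1 and 11.4 FPKM in Col-0 (limma adjusted p = 0.0590), and it was called lower after rescaling (limma adjusted p = 0.0275). In the authors' deposited table PHT1;1 is at 20.6 FPKM in mutant mRNA and 57.2 FPKM in Col-0 (q = 0.000329).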

How the data were processed

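The authors deposited chromatin-bound RNA as FPKM, in 1 table per genotype with 2 replicate columns. The labels give 2 libraries per replicate number, and how they were combined is not stated in the sources used here. The authors' mRNA table holds 1 value for each genotype, read as FPKM although the file names no unit, and a q-value (an adjusted p-value, per the file headers). Per the submitters' processing notes the build was TAIR10, and the tools were Cufflinks and Cuffdiff 2.2.1, TopHat2 2.1.1, StringTie 1.3.4d and HISAT2 2.0.5, whose roles are not stated. Left unused was 1 column of values, which repeats mutant replicate 2, and the iCLIP libraries were not analysed here. All 279 organelle genes are listed at 0, so an exact 0 is reported as listed at 0.

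Differences in chromatin-bound RNA were tested in R 4.3.3 by limma 3.58.1 with trend. Values entered as log2(FPKM + 1), genes averaging under 1 FPKM were left out, and p-values were adjusted by Benjamini-Hochberg over the 19694 genes that remained, with 0.05 as the threshold. The added 1 makes changes of low genes look smaller than they are. mRNA calls are the authors' q under 0.05, and mRNA ratios were computed from the deposited values. Depth is known only relative to other columns: modal ratios of values under 1 FPKM held between 2.73% and 7.88% of genes, and the ratio of mutant replicate 1 to Col-0 replicate 2 came out at a lower step, 1.40. Gene names came from RefSeq (TAIR10.1), where 32835 of 33602 identifiers matched; no coordinates are printed because that build's name differs from the authors'. Alternatives were other pseudocounts, filters and scalings, no trend, a replicate block and each replicate left out.

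The members, groups and gene lists were chosen with earlier results of these data known. Values are given for members called in either kind of RNA and for the highest members, and for up to 4 called genes of each list. Other list genes, and members called in neither kind of RNA, were named after their values were seen. Protein and promoter sequences were not used here. Replicate numbers are shared between genotypes, but the labels do not say that a number marks a shared culture.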

Additional observations from a re-analysis of the deposited data

How the results depend on the processing

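The limits are mainly those of 2 columns per genotype, unknown absolute depth and a single mRNA value per genotype. No called member changed sign in any alternative, and the number of lower members moved little with scaling, pseudocount or trend. The counts of WRKY genes called higher and lower in chromatin-bound RNA, 6 and 10, became 3 and 5 with no filter on low values. The higher count became 2 after median-of-ratios rescaling, 2 after quantile normalization and 1 with rRNA genes left out and the columns rescaled, where the lower counts were 11, 11 and 12. With 1 replicate left out, the counts ran from 0 to 6 higher and from 1 to 9 lower, the fewest without either mutant replicate, where the lone column is assumed to vary like the others. Over all genes, 2595 higher and 835 lower became 1418 and 513 with no filter, 1329 and 1544 after median-of-ratios rescaling, 1381 and 1464 after quantile normalization and 1170 and 1698 without rRNA genes. With 1 replicate left out they ran from 113 to 4108 higher and from 114 to 880 lower. With the replicate block 9 members were higher and 11 lower, all 16 calls were kept, and WRKY8, WRKY18, WRKY30 and WRKY33 were added. Deviations of same-numbered columns correlated at 0.01, so the numbers were not taken as pairs. In mRNA, 13 higher and 13 lower became 9 and 8 at q under 0.01, and 5 and 5 at 2-fold or more on value + 1. Causes of these moves were not tested.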
